A study of Caenorhabditis elegans with 12 samples.

Results

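The *lbp* genes of *C. elegans* encode lipid-binding proteins, small carriers of the fatty acid-binding protein family. The 8 genes *lbp-1* to *lbp-8* were chosen by name and taken from a table of read counts that lists 45836 genes, of which 24428 had a count and 15344 were tested. They are F40F4.3, F40F4.2, F40F4.4, ZK742.5, W02D3.7, W02D3.5, T22G5.2 and T22G5.6 in the order of their numbers. Each of the 8 had a count in all 12 libraries and passed the filter on low counts. The names of *lbp-5* and *lbp-6* follow the WormBase annotation; the rule used to pick the genes had these identifiers the other way round, which leaves the set of genes the same.

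Messenger RNA from whole young adults was sequenced in 4 genotypes with 3 biological replicates each: the double mutant *eat-2;nhr-62*, *eat-2(ad465)*, *nhr-62(tm1818)* and wild-type (N2). *eat-2* encodes a pharyngeal acetylcholine receptor subunit, and its mutants pump and eat less, which makes them a genetic model of dietary restriction (DR). *nhr-62* encodes a nuclear receptor of the HNF4 type. By the study, *tm1818* deletes a piece of the gene and brings an immediate stop codon, so that the DNA-binding domain is lost. A predicted shorter isoform without that domain may remain. All animals fed on *E. coli* OP50 at 20 °C and were picked by hand at adulthood before they carried embryos, so no library comes from an isolated tissue.

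A fatty acid-binding protein folds into a barrel that holds a fatty acid or a similar lipid, which does not dissolve in water, and moves it within or between cells. In worms, LBP-1, LBP-2 and LBP-3 carry predicted secretion signals, and the other members lack them and work inside cells. LBP-8 is known as a lysosomal carrier of the intestine: after the lysosomal lipase LIPL-4 frees lipid messengers, LBP-8 takes them to the nucleus, where the receptors NHR-49 and NHR-80 respond. LBP-5 affects fat storage and has been placed with NHR-49, and LBP-3 has been placed in lipid signalling from the gut to neurons.

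The deposited sources hold the sequence of 1 pair of primers for these genes, with which *lbp-8* can be followed by qPCR. It is printed here because *lbp-8*, on chromosome V, gave the largest fitted changes of the 8 genes when *eat-2* was compared with wild-type or with the double mutant. Each primer is 23 bases long and is written 5′ to 3′ in lower case.
*lbp-8* forward primer: atcggagttggtcttcttattcg
*lbp-8* reverse primer: cgtggagtattgattgaaatgcc

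In *eat-2* animals *lbp-5* and *lbp-7* were higher than in wild-type and *lbp-8* was lower, and the other 5 genes did not pass the thresholds. In the double mutant *lbp-8* was 4.32-fold higher than in *eat-2*, and *lbp-7* was 1.53-fold lower than in *eat-2*. The *nhr-62* mutation alone moved none of the 8 past the thresholds. The genotypes were compared in 1 fit of edgeR's quasi-likelihood test, and a gene was called if it passed the thresholds of the study: Benjamini-Hochberg adjusted p below 0.05, more than 1.5-fold change, and more than 10 normalized counts on average. Normalized counts are read counts divided by the library's size after TMM scaling (trimmed mean of M-values).

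**Figure D1:**
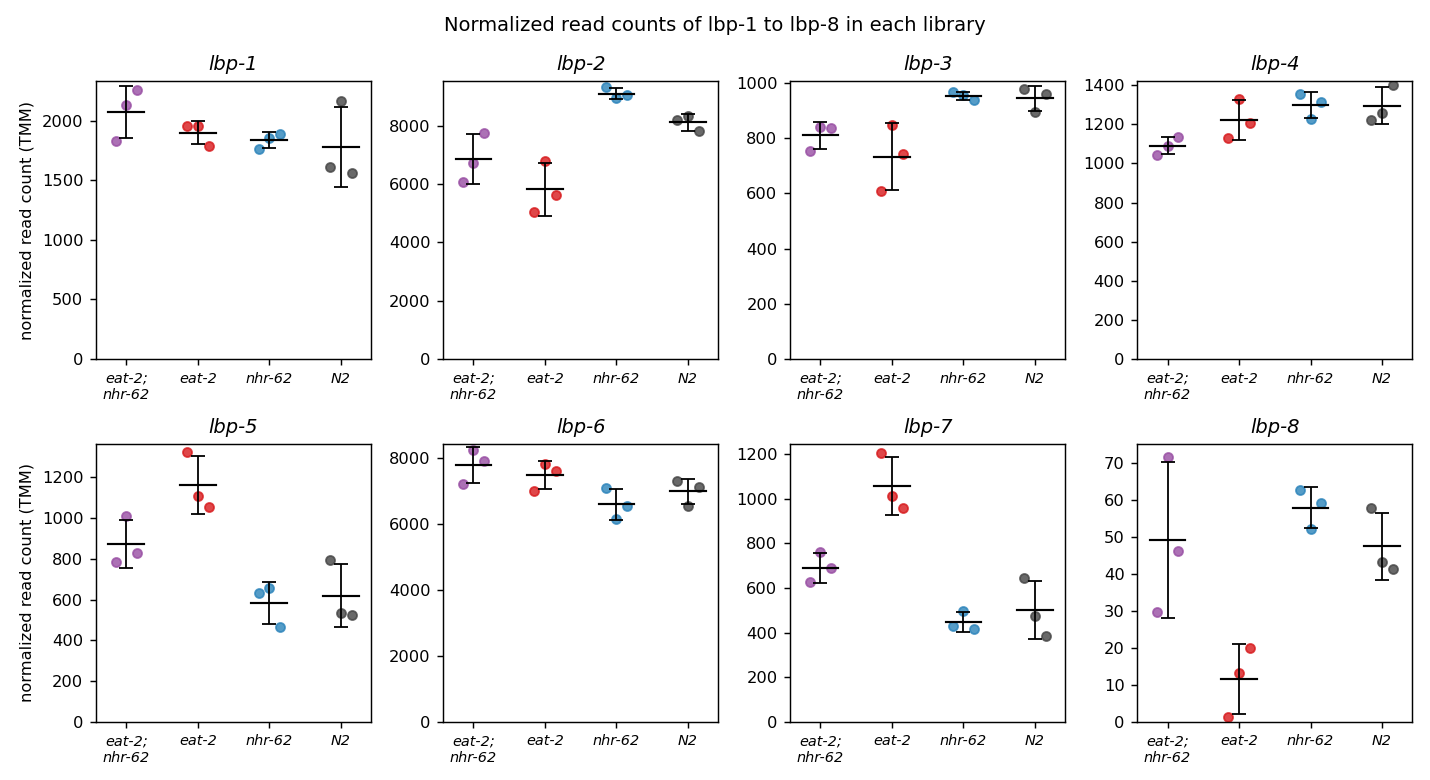
Normalized read counts (TMM scaling, y axes from 0) of *lbp-1* to *lbp-8* in the double mutant, *eat-2*, *nhr-62* and N2; points are libraries in the order of their replicate numbers, horizontal lines are means and bars are SD (n = 3). The 3 *eat-2* libraries of *lbp-8* sit between 1.22 and 20.0, under all libraries of the other genotypes, and those of *lbp-7* sit between 959 and 1206, above all others.

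Total counts per library were 18260311 to 31180808 in the double mutant, 21351152 to 26833841 in *eat-2*, 30593981 to 44753083 in *nhr-62* and 28336227 to 29081076 in wild-type. In squared differences averaged over genes, replicate libraries differed 10.3 to 61.1 times as much as sampling of reads alone would give. Such a mean leans on transcripts with many reads, and it was not split by level. The mutated genes gave only weak checks of the labels. *nhr-62* stood at 102 ± 19 normalized counts in the double mutant, 147.5 ± 18.9 in *eat-2*, 134 ± 7.3 in *nhr-62* and 156 ± 33 in wild-type (SD, n = 3). For *eat-2* the means were 3.2 ± 2.7, 4.0 ± 3.2, 11.2 ± 4.8 and 14.5 ± 6.7 in the same order of genotypes.

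Among the genes of intracellular carriers, *lbp-8* had the lowest counts and the widest change. It had 1, 14 and 16 reads in *eat-2* replicates 1, 2 and 3, against 55, 41 and 38 reads in the wild-type replicates. After scaling these were 1.22, 13.2 and 20.0 normalized counts in *eat-2* and 58.0, 43.2 and 41.5 in wild-type. Each *eat-2* library was below each wild-type library, and *eat-2* replicate 1 was far below the other *eat-2* libraries.

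The fitted log2 fold-change of *lbp-8* between *eat-2* and wild-type was -2.03 (standard error, SE, 0.51; adjusted p = 0.00634), 4.10-fold lower in *eat-2*. A count of 1 has an exact Poisson 95% interval of 0.0253 to 5.57, which covers counting error only. Without that library the log2 fold-change was -1.54 (SE 0.38, adjusted p = 0.00714), and over all single libraries left out it ran from -2.60 to -1.54, with the call kept each time. Of all genes tested, 3.61% were called lower in this comparison, and *lbp-8* was the 1 gene of the 8 called lower.

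The double mutant had 19, 78 and 48 *lbp-8* reads in replicates 1, 2 and 3, and *nhr-62* had 90, 53 and 76. In normalized counts the double mutant gave 29.7, 71.7 and 46.2, against 1.22, 13.2 and 20.0 in *eat-2*. All double mutant libraries lay above all *eat-2* libraries, and their spread (SD 21.2) was wider than that of wild-type (SD 9.07).

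The log2 fold-change of *lbp-8* between the double mutant and *eat-2* was 2.11 (SE 0.51, adjusted p = 0.0287). This comparison and that of *eat-2* with wild-type use the same *eat-2* libraries. Only 0.782% of all genes were called higher in this comparison (5.44% in either direction), and *lbp-8* was the 1 member called so. The call was lost without *eat-2* replicate 2 (2.24, adjusted p = 0.0741), without double mutant replicate 2 (1.74, adjusted p = 0.128) and without double mutant replicate 3 (2.17, adjusted p = 0.0566), and adjusted p ran from 0.000688 to 0.128 over all alternatives. It was also lost when only the libraries of these genotypes were fitted (2.12, adjusted p = 0.0635).

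Against wild-type, *lbp-8* in the double mutant differed by 0.08 on the log2 scale (SE 0.44, adjusted p = 0.92), and against *nhr-62* by -0.21 (SE 0.43, adjusted p = 0.75). Mean levels of *lbp-8* were 49.2 ± 21.2 normalized counts in the double mutant and 47.5 ± 9.07 in wild-type (SD, n = 3), and SEs of this size do not exclude a 1.5-fold difference either way. *nhr-62* animals had 62.8, 52.1 and 59.1 normalized counts of *lbp-8*, against 58.0, 43.2 and 41.5 in wild-type. The *nhr-62* libraries overlapped those of wild-type, with a log2 fold-change of 0.29 (SE 0.43, adjusted p = 1).

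The interaction of both mutations tests whether the *eat-2* effect differs with and without *nhr-62*. For *lbp-8* it was 1.82 on the log2 scale (SE 0.67, unadjusted p = 0.018), and it did not pass the adjustment over all genes (adjusted p = 0.259, and 0.123 to 0.518 over the alternatives, DESeq2's test giving the lowest). None of the 8 genes was called for the interaction, against 0.261% of all genes, and only *lbp-8* had an unadjusted p under 0.05. DESeq2 also called none.

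*lbp-7* lies near *lbp-8* on chromosome V, with 3 protein-coding genes between them, and encodes another intracellular carrier. It had 1206, 1014 and 959 normalized counts in *eat-2* replicates 1, 2 and 3, against 643, 475 and 385 in wild-type. The genotypes did not overlap. The log2 fold-change was 1.08 (SE 0.16, adjusted p = 0.000483), 2.11-fold higher in *eat-2*.

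Double mutant animals had 627, 761.5 and 688 normalized counts of *lbp-7*, all below the *eat-2* libraries. The log2 fold-change between the double mutant and *eat-2* was -0.61 (SE 0.16, adjusted p = 0.0368), 1.53-fold lower and so just past the fold threshold. In this comparison 4.66% of all genes were called lower, and *lbp-7* was the 1 member. Its call was lost in 8 of 12 fits that left out a library, namely each *eat-2* and each double mutant library and *nhr-62* replicates 2 and 3 (log2 fold-change -0.51 to -0.68, adjusted p 0.0508 to 0.0942). Over all alternatives its adjusted p ran from 0.00804 to 0.0942.

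*lbp-7* had 428, 497 and 418 normalized counts in *nhr-62*, so the double mutant libraries lay above every *nhr-62* library. The log2 fold-change between the double mutant and *nhr-62* was 0.63 (SE 0.16, adjusted p = 0.0207), and it was the 1 member called higher in a comparison that called 9.46% of all genes higher and 10.9% in either direction. The call was lost without *nhr-62* replicate 1 (0.60, adjusted p = 0.0721), *nhr-62* replicate 3 (0.57, adjusted p = 0.0742), double mutant replicate 2 (0.56, adjusted p = 0.0632) or double mutant replicate 3 (0.63, adjusted p = 0.0569). Against wild-type the double mutant value was 0.47 (SE 0.16, adjusted p = 0.0833), and the libraries overlapped. The interaction of *lbp-7* was -0.45 (SE 0.23, adjusted p = 0.394).

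*lbp-5*, on chromosome I, had 1323, 1110 and 1056 normalized counts in *eat-2* replicates 1, 2 and 3, against 797, 536 and 525 in wild-type. Wild-type replicate 1 was higher than the other wild-type libraries for both *lbp-5* and *lbp-7*, and still below every *eat-2* library. The log2 fold-change was 0.91 (SE 0.18, adjusted p = 0.00187), 1.88-fold higher in *eat-2*. *lbp-5* and *lbp-7* were the 2 members called higher in this comparison, in which 23.9% of all genes were called higher. With *lbp-8*, 3 of the 8 were called in either direction, against 27.6% of all genes.

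The double mutant had 785, 1009 and 829 normalized counts of *lbp-5*, each below each *eat-2* library. The log2 fold-change between the double mutant and *eat-2* was -0.41 (SE 0.18), and it did not pass the test (adjusted p = 0.128). *nhr-62* had 633, 655 and 464, below every double mutant library. That log2 fold-change, double mutant against *nhr-62*, was 0.58 (SE 0.18, adjusted p = 0.0389) at a fold of 1.49989, just under the threshold of 1.5, so that a call appeared with total-count scaling (0.68), with only these genotypes fitted (0.59) or with the replicate block (0.60).

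Against wild-type, *lbp-5* in the double mutant was at 0.50 on the log2 scale (SE 0.18, adjusted p = 0.0898). None of the 8 genes was called in this comparison by edgeR or by DESeq2, against 6.63% of all genes, and 4 had an unadjusted p under 0.05. Without wild-type replicate 1 both *lbp-5* (0.73, adjusted p = 0.0188) and *lbp-7* (0.70, adjusted p = 0.0114) were called. Set against the *eat-2* value of each gene, the double mutant's log2 difference from wild-type was 55.0% for *lbp-5*, 43.3% for *lbp-7* and -3.72% for *lbp-8*. These shares have the same wild-type libraries in both values and carry no test.

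**Figure D2:**
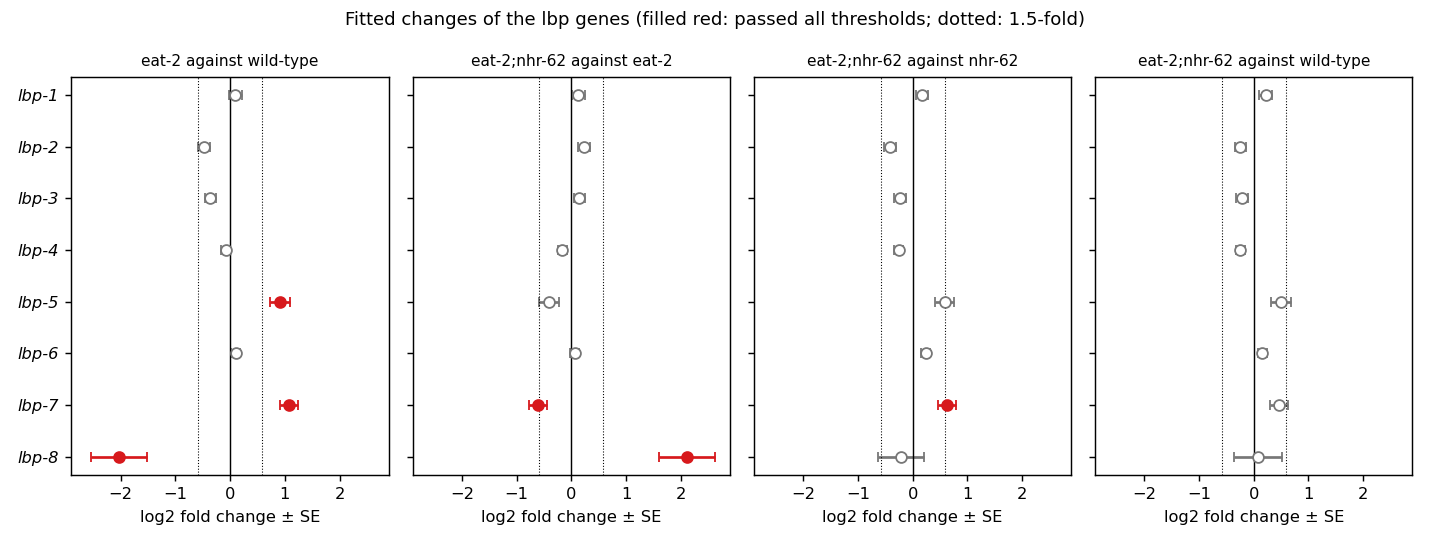
Fitted log2 fold-changes (x axis) of *lbp-1* to *lbp-8* (rows) in 4 comparisons; bars are standard errors, filled red points passed all thresholds and dotted lines mark a 1.5-fold change. *lbp-8* is at -2.03 in *eat-2* against wild-type and at 2.11 in the double mutant against *eat-2*; without the double mutant's replicate 2 the second value is 1.74 and is not called.

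The other intracellular members, *lbp-4* and *lbp-6*, did not pass all thresholds in any comparison. *lbp-6*, on chromosome I with 1 protein-coding gene between it and *lbp-5*, had 6987, 7814 and 7612 normalized counts in *eat-2* and 7292, 6540 and 7107 in wild-type. The libraries overlapped, with a log2 fold-change of 0.10 (SE 0.08, adjusted p = 0.293). In the double mutant it had 7200, 8247 and 7902, against 7087.5, 6158 and 6524 in *nhr-62*, a log2 fold-change of 0.24 (SE 0.08, adjusted p = 0.0467) that is under the fold threshold. The end of *lbp-6* overlaps *mec-6* on the other strand, and the strand setting of the counting is unknown here, so reads of that short stretch cannot be told apart.

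*lbp-4*, on chromosome V, had 1129, 1330 and 1205 normalized counts in *eat-2* and 1224, 1259 and 1404 in wild-type, with a log2 fold-change of -0.08 (SE 0.08, adjusted p = 0.386). Under total-count scaling this value turned to 0.14. The double mutant had the lowest levels, 1046, 1092 and 1133, below every library of *nhr-62* (1356, 1226 and 1315) and of wild-type. Neither difference reached the fold threshold: -0.25 against *nhr-62* (SE 0.08, adjusted p = 0.0445) and -0.25 against wild-type (SE 0.08, adjusted p = 0.0659).

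The 3 members with secretion signals form a cluster on chromosome X, where *lbp-3*, *lbp-1* and *lbp-2* follow each other on the same strand with no gene between them. *lbp-2* had 5028, 6802 and 5609 normalized counts in *eat-2*, against 8182, 8342 and 7797.5 in wild-type. The log2 fold-change was -0.48 (SE 0.11, adjusted p = 0.00359), lower in every *eat-2* library than in any wild-type library and under the fold threshold.

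*lbp-3* had 608, 849 and 742.8 normalized counts in *eat-2*, against 977, 894 and 960 in wild-type, a log2 fold-change of -0.36 (SE 0.10, adjusted p = 0.0127) that is also under the fold threshold. With the adjusted p alone as the rule, 3 members passed as lower and 2 as higher in *eat-2*, against 22.5% and 29.9% of all genes and 52.4% in either direction. The p of *lbp-2* and *lbp-3* depends on the scaling: with total counts, which move the median of all genes in this comparison to 0.28 against 0.06 with TMM, they were at -0.25 (adjusted p = 0.109) and -0.13 (adjusted p = 0.371).

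*lbp-1*, between them, had 1954, 1954 and 1788 normalized counts in *eat-2*, against 1612.5, 2167 and 1564 in wild-type. It did not pass the test, with a log2 fold-change of 0.09 (SE 0.12, adjusted p = 0.511), and its *eat-2* libraries lay within the wild-type range. Ratios within a library need no scaling. The ratio of *lbp-2* to *lbp-1* per exonic length was 2.42 ± 0.10 in the double mutant, 2.24 ± 0.34 in *eat-2*, 3.63 ± 0.20 in *nhr-62* and 3.39 ± 0.50 in wild-type (SD, n = 3). As a percent, *lbp-3* over *lbp-1* was 34.9 ± 1.8 in the double mutant, 34.4 ± 5.9 in *eat-2*, 46.3 ± 2.3 in *nhr-62* and 48.4 ± 10.2 in wild-type. Both ratios were lower in the genotypes with the *eat-2* mutation, though for *lbp-3* over *lbp-1* the wild-type libraries reached down to 36.7 and those of *eat-2* up to 38.6.

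For *lbp-2* the double mutant had 6076, 6709 and 7755 normalized counts, and for *lbp-3* it had 753, 841 and 838. Both genes overlapped *eat-2* there, with log2 fold-changes of 0.24 (SE 0.11, adjusted p = 0.145) and 0.14 (SE 0.10, adjusted p = 0.352). *nhr-62* had 9306, 8933 and 9036 of *lbp-2*, all above the double mutant, with a log2 fold-change of -0.41 between the double mutant and *nhr-62* (SE 0.11, adjusted p = 0.0222, under the fold threshold). *lbp-3* had 965, 957 and 938 in *nhr-62*, and that log2 fold-change was -0.23 (SE 0.10, adjusted p = 0.128). The *lbp-1* libraries of the double mutant, at 1829, 2127 and 2256, overlapped those of all other genotypes. By the adjusted p alone 5 of the 8 genes passed between the double mutant and *nhr-62* (*lbp-2*, *lbp-4*, *lbp-5*, *lbp-6* and *lbp-7*), against 19.4% of all genes.

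The *nhr-62* mutation on its own left no member called by edgeR or DESeq2, and none had an unadjusted p under 0.05. Log2 fold-changes ran from -0.16 for *lbp-7* to 0.29 for *lbp-8*, each with an adjusted p of 1. Only *lbp-2* had *nhr-62* libraries that did not overlap wild-type, which 8.37% of all genes also showed. Few genes were called in this comparison at all, 0.104% of those tested.

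Over the 8 genes together, the libraries of both genotypes did not overlap for 5 in *eat-2* against wild-type, 3 in the double mutant against wild-type, 3 in the double mutant against *eat-2* and 6 in the double mutant against *nhr-62*. The shares of all genes were 59.3%, 35.0%, 37.9% and 45.4%. The median log2 fold-change of the 8 was 0.0042 in *eat-2* against wild-type (0.059 over all genes) and 0.09 in the double mutant against *eat-2* (-0.03 over all genes). Members were found on both sides of 0 in every comparison.

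Per exonic length, the carriers spanned a wide range. Levels are given as RPKM (reads per kilobase of exon, scaled to library size), with exonic lengths from the WBcel235 annotation. *lbp-6* was the highest, at 513 RPKM in the double mutant, 492 in *eat-2*, 434 in *nhr-62* and 460 in wild-type. *lbp-2* followed at 313, 266, 416 and 371 RPKM in the same order of genotypes, and its libraries overlapped those of *lbp-6* only in *nhr-62*. *lbp-1* came next at 130, 118.8, 115 and 111 RPKM. *lbp-8* was the lowest at 3.24, 0.754, 3.81 and 3.13 RPKM, and in wild-type the next gene up, *lbp-7*, was 10.8-fold higher.

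The order of the genes in between changed with the genotype. In *nhr-62* and wild-type it ran *lbp-4*, *lbp-3*, *lbp-5*, *lbp-7* from high to low, and the wild-type libraries of *lbp-3* and *lbp-5* and of *lbp-5* and *lbp-7* overlapped. In *eat-2* it ran *lbp-5*, *lbp-4*, *lbp-7*, *lbp-3*, with levels of 84.0, 71.5, 71.2 and 40.8 RPKM. There the ranges of *lbp-5* and *lbp-4* and of *lbp-4* and *lbp-7* overlapped. Within each *eat-2* library *lbp-5* was still above *lbp-4*, at 95.5 against 66.1, 80.1 against 77.9 and 76.2 against 70.5 RPKM. *lbp-7* was above *lbp-4* in *eat-2* replicate 1 (81.0 RPKM) and below it in replicates 2 and 3 (68.1 and 64.4 RPKM). Differences between genes were not tested. In the double mutant it ran *lbp-4*, *lbp-5*, *lbp-7*, *lbp-3*, at 63.8, 63.1, 46.5 and 45.1 RPKM, and the first pair and the last pair overlapped.

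**Figure D3:**
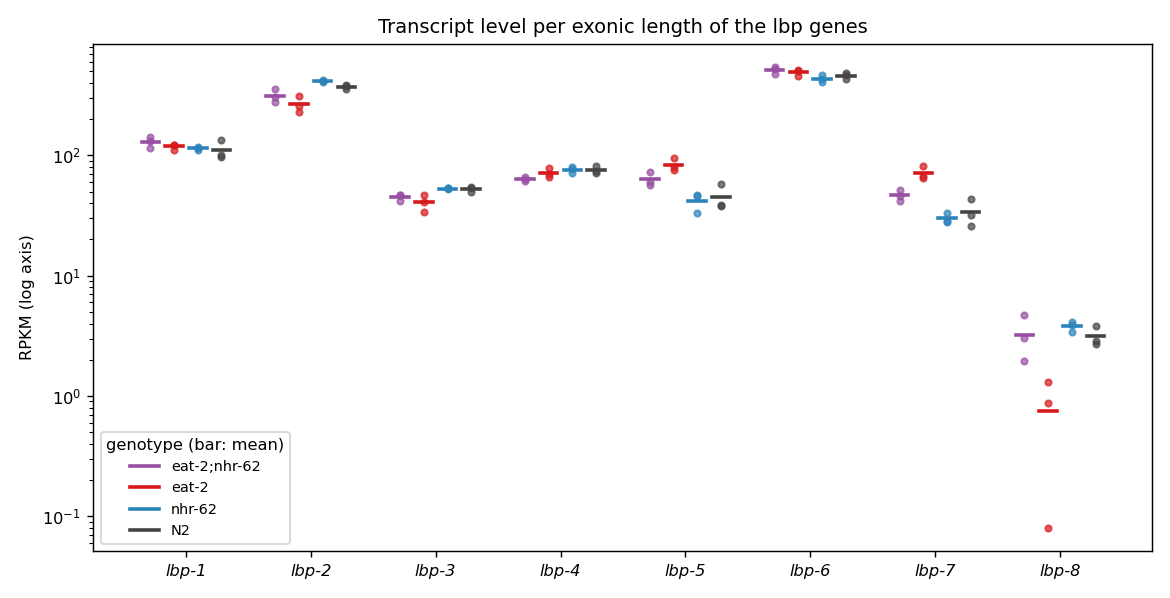
Level per exonic length (RPKM, log y axis) of each *lbp* gene; points are libraries and short bars are means for the double mutant, *eat-2*, *nhr-62* and N2 (n = 3 each). *lbp-6* has means of 434 to 513 and *lbp-8* lies between 0.0800 and 4.72 over all libraries; *lbp-5* and *lbp-7* lie above *lbp-3* in *eat-2*.

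The 8 genes together held 0.0714 ± 0.0065% of all counted reads in the double mutant, 0.0740 ± 0.0075% in *eat-2*, 0.0689 ± 0.0012% in *nhr-62* and 0.0662 ± 0.0020% in wild-type (SD, n = 3). *lbp-2* gave 33.8% of the *lbp* reads in the double mutant, 29.9% in *eat-2*, 43.6% in *nhr-62* and 39.99% in wild-type. *lbp-5* gave 4.33%, 6.04%, 2.80% and 3.04% in that order, and *lbp-7* gave 3.42%, 5.51%, 2.15% and 2.46%. For *lbp-8* the shares were 0.240%, 0.0584%, 0.278% and 0.234%.

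**Figure D4:**
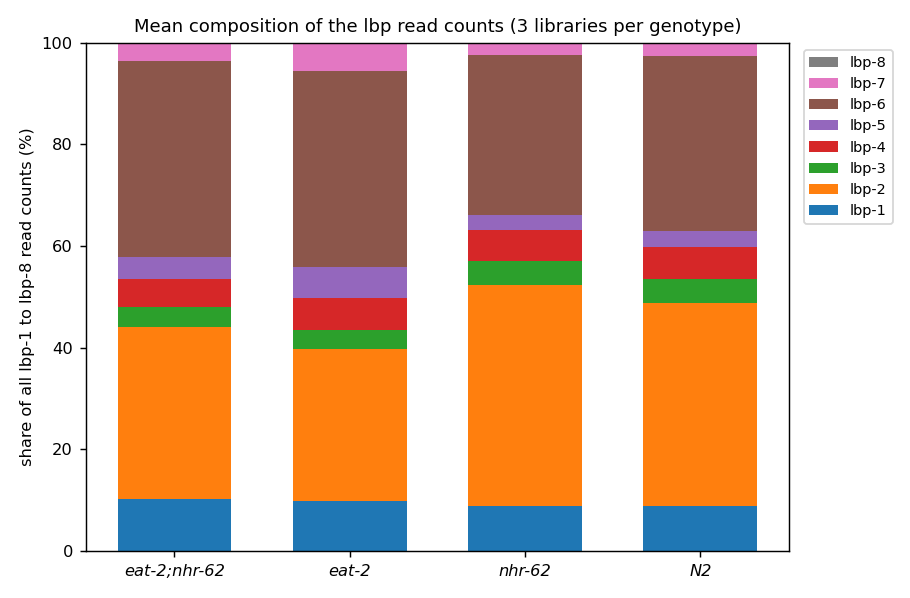
Mean share (%) of all *lbp-1* to *lbp-8* reads that came from each gene, stacked from 0 to 100, in the double mutant, *eat-2*, *nhr-62* and N2 (n = 3 each). *lbp-2* takes 29.9% in *eat-2* and 39.99% in N2; *lbp-8* is too small to see at 0.0584% in *eat-2* and 0.234% in N2.

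The neighbouring carriers on chromosome V were also set against each other within each library, by a ratio that does not show which gene of the pair differs between genotypes. *lbp-8* stood at 4.64%, 9.22% and 6.57% of *lbp-7* per exonic length in the double mutant replicates 1, 2 and 3, and at 0.0988%, 1.28% and 2.04% in *eat-2*. It stood at 14.4%, 10.3% and 13.9% in *nhr-62* and at 8.83%, 8.90% and 10.5% in wild-type. All *eat-2* libraries were lowest, and the double mutant overlapped wild-type. For the pair on chromosome I, *lbp-5* was 12.3 ± 1.0% of *lbp-6* in the double mutant, 17.2 ± 3.1% in *eat-2*, 9.75 ± 1.9% in *nhr-62* and 9.68 ± 2.0% in wild-type.

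The next gene on the far side of *lbp-8*, *sptl-3*, which encodes a serine palmitoyltransferase subunit and was singled out after its values were seen, was also called lower in *eat-2*. Its log2 fold-change was -0.80 between *eat-2* and wild-type (SE 0.11, adjusted p = 0.000381) and 0.42 between the double mutant and *eat-2* (SE 0.11, adjusted p = 0.042, under the fold threshold). *ant-1.2*, the gene between *lbp-5* and *lbp-6* and also named after its value was seen, was at 0.63 in *eat-2* against wild-type with an SE of 0.57 (adjusted p = 0.363).

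The remaining gene of the class, *lbp-9*, is not one of the 8 and had more reads than any of them. Its mean was 10615 ± 788 normalized counts in the double mutant, 9728 ± 740 in *eat-2*, 11482 ± 1061 in *nhr-62* and 11393 ± 563 in wild-type. The log2 fold-change between *eat-2* and wild-type was -0.23 (SE 0.09, adjusted p = 0.042), under the fold threshold. It overlaps another gene, Y40B10A.9, by a few bases.

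Likeness of pattern was measured by Pearson's r of log2 CPM (counts scaled to library size) over the 12 libraries, with 14743 candidate genes, as a description only, since all values share the same libraries and their depth. Among the members, *lbp-5* and *lbp-7* were most alike (r = 0.97), then *lbp-2* and *lbp-3* (r = 0.93), while *lbp-2* and *lbp-7* ran in opposite directions (r = -0.84). Outside the family, *lbp-8* was most like *lon-2* (r = 0.969), a glypican gene, T04B8.5 (r = 0.965) and *bca-1* (r = 0.961), a carbonic anhydrase gene. Of these 3, only *bca-1* was called lower between *eat-2* and wild-type, at -0.59 (adjusted p = 0.0319).

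*lbp-7* was most like *cal-5* (r = 0.982), F58D5.8 (r = 0.98) and *faah-1* (r = 0.976), which encodes a fatty acid amide hydrolase. The log2 fold-change of *faah-1* was 0.61 in *eat-2* against wild-type (adjusted p = 0.000245) and -0.33 in the double mutant against *eat-2* (adjusted p = 0.0286, under the fold threshold). *lbp-5* was most like F37C4.8 (r = 0.971), F35B12.10 (r = 0.97) and *sek-4* (r = 0.963). For the others the closest genes were F37H8.5 for *lbp-2* (r = 0.978), *ctsa-1.1* for *lbp-3* (r = 0.97), *mdmh-35* for *lbp-4* (r = 0.93), F27D4.8 for *lbp-1* (r = 0.911) and C49F5.9 for *lbp-6* (r = 0.904).

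LBP-8 is placed between a lipase and nuclear receptors with their partners, and 6 genes of that pathway were listed. Between *eat-2* and wild-type, 1 of them was called higher and none lower, against 23.9% and 3.61% of all genes. This was *lipl-4*, the lipase upstream of LBP-8, at 1.37 (SE 0.39, adjusted p = 0.0117), which overlaps other genes. *nhr-66*, which also overlaps other genes, had the smallest p of the 6 and was lower, at -0.30 (adjusted p = 0.00263, under the fold threshold). *nhr-80* was at 0.54 (adjusted p = 0.00531, under the fold threshold), and *nhr-49*, named after its value was seen, was at -0.01 (adjusted p = 0.924). The list median was 0.13, with 0.059 over all genes. None of the 6 was called in the double mutant against *eat-2*, where *lipl-4* was at 0.34 (adjusted p = 0.537). There *nhr-66* was at 0.28 (adjusted p = 0.0246, under the fold threshold), and 5.44% of all genes were called.

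Of 6 genes that NHR-49 is known to activate, 2 were called lower and none higher between *eat-2* and wild-type. They were *acs-2*, a mitochondrial acyl-CoA synthetase gene, at -4.09 (SE 0.31, adjusted p = 8.37e-06) and *fat-7*, a stearoyl-CoA desaturase gene, at -2.05 (SE 0.34, adjusted p = 0.000776). The median of the 6 was -1.10, with the genes split around it. *fmo-2* was at -2.28 and did not pass the test (adjusted p = 0.0916). *fat-5*, *fat-6* and *icl-1* were at -0.15, -0.07 and 0.68 and did not pass it either. *fat-5* and *icl-1* are named after their values were seen. Of all genes, 3.61% were called lower and 23.9% higher in this comparison. *acs-2* was the 1 gene of this list called in the double mutant against *eat-2*, at 1.13 (SE 0.31, adjusted p = 0.0416). There 0.782% of all genes were called higher.

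Other lipid carriers gave mixed counts in *eat-2* against wild-type, in which 23.9% of all genes were called higher and 3.61% lower. Of 8 *far* genes, which encode fatty acid- and retinol-binding proteins, *far-7* was called higher at 1.49 (adjusted p = 0.0013) and *far-3*, which overlaps another gene, was called lower at -1.16 (adjusted p = 0.0369); *far-3* is named after its value was seen. Of 5 acyl-CoA-binding genes tested, *acbp-4* was called higher at 0.78 (adjusted p = 0.014). Of 7 lipid transfer genes, *ncr-1* (0.68) and *ncr-2* (1.25), of the Niemann-Pick C1 sterol transport family, were called higher. The medians of these lists were 0.08, 0.04 and 0.13. None of them had a gene called in the double mutant against *eat-2*, where 5.44% of all genes were called.

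Of 21 acyl-CoA synthetase genes, which activate the fatty acids that such carriers bring, the comparison of *eat-2* with wild-type called 6 higher and 2 lower, with a median of 0.26. Of all genes, 23.9% were called higher and 3.61% lower. The lower ones of the list were *acs-2* and *acs-19*, at -0.79 (adjusted p = 0.000232). In the double mutant against *eat-2*, *acs-2* was called higher and *acs-6*, named after its value was seen, was called lower at -0.68 (adjusted p = 0.0482). The shares of all genes there were 0.782% higher and 4.66% lower. The yolk genes, whose products carry lipid to oocytes, form a list of 7 with their receptor, of which 6 were called lower between *eat-2* and wild-type and 5 higher between the double mutant and *eat-2*. The list median was -2.81 and 0.94 in these comparisons. Some of them are near copies of each other, so reads may be split between them.

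Some markers of tissues and stage differed with the *eat-2* genotype as well. Because the RNA came from whole animals, fewer or smaller cells of a type and less of a transcript per cell cannot be told apart for any gene here. Intestine markers, of the tissue where LBP-8 is known, summed to 880 to 935 CPM in the double mutant, 747 to 918 in *eat-2*, 608 to 689 in *nhr-62* and 585 to 728 in wild-type, with 2 of 5 called higher in *eat-2* against wild-type and none lower. Of all genes, 23.9% were called higher and 3.61% lower in this comparison.

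Pharyngeal muscle markers summed to 829 to 1043 CPM in the double mutant, 1028 to 1348 in *eat-2*, 476 to 619 in *nhr-62* and 505 to 689 in wild-type, with 5 of 5 called higher in *eat-2* against wild-type. Sperm markers summed to 90.1 to 128 CPM in the double mutant, 154 to 196 in *eat-2*, 59.8 to 73.2 in *nhr-62* and 49.7 to 116 in wild-type, and 7 of 8 were called higher in *eat-2* against wild-type. Their medians were 1.18 for pharyngeal muscle, 1.16 for sperm and, for the intestine above, 0.49. In this comparison 23.9% of all genes were called higher. The means of the pharyngeal and sperm sums run in the same order of genotypes as those of *lbp-5* and *lbp-7*. Wild-type replicate 1, the highest wild-type library for both genes, also had the most sperm (116 CPM) and intestine (728 CPM) marker RNA of wild-type. Over *eat-2* replicates 1, 2 and 3 the sperm sums (196, 158 and 154 CPM) fell in the same order as both genes. The intestine sums of these *eat-2* libraries (747, 883 and 918 CPM) ran in the reverse order of both genes. Over the double mutant replicates the sperm sums (128, 90.1 and 106 CPM) ran in the reverse order of both genes, and the intestine sums (935, 905 and 880 CPM) in neither order. In *nhr-62* and wild-type the orders were mixed. Oocyte and eggshell markers summed to 10621 to 11131 CPM in the double mutant, 7257 to 8553 in *eat-2*, 11341 to 11628 in *nhr-62* and 10319 to 11740 in wild-type. Between *eat-2* and wild-type all 10 were lower in *eat-2*, at log2 fold-changes of -0.57 to -0.28 (median -0.45) with edgeR adjusted p of 0.000447 to 0.0108, and none passed the 1.5-fold threshold of a call. By the adjusted p alone, 22.5% of all genes were lower in that comparison. Between the double mutant and *eat-2* all 10 were higher in the double mutant, at 0.25 to 0.52 (median 0.41), 8 of them with an adjusted p under 0.05. There the adjusted p alone passed 1624 of the 15344 genes tested, in either direction. The calls of *lbp-8* had these same directions, and the part of the oocyte and eggshell markers in them was not tested. With the libraries scaled by total counts, an alternative chosen after seeing the data, the directions of all 10 held in both comparisons, with 6 and 7 of 10 under the adjusted p and medians of -0.23 and 0.30.

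Neuron markers gave 2 of 6 called higher in *eat-2* against wild-type, hypodermis markers 2 of 6 and body wall muscle markers none of 6. No marker of these lists was called lower, and 23.9% of all genes were called higher. Early embryo markers summed to 3.33 CPM or less in every library, and 1 of the 7 was at 0 in all. The part of these markers in the changes of *lbp-5*, *lbp-7* and *lbp-8* was not tested.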

How the data were processed

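Per the labels and the study's methods, the authors removed adapter sequence from single-end reads of 100 bp, aligned them to WBcel215 and its gene models with TopHat 1.3, kept 1 alignment per read, counted reads per gene with HTSeq (version and strand setting not given in the sources used here) and tested them with DESeq. The values the authors deposited are these raw counts, not normalized.

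The test was that of edgeR 4.0.16 (R 4.3.3): filterByExpr (minimum count 10), TMM scaling and 1 quasi-likelihood fit over 12 libraries with a mean per genotype (8 residual degrees of freedom) gave 6 comparisons, with Benjamini-Hochberg adjustment over 15344 genes. Standard errors are the log2 fold-change over the square root of F. Called genes passed an adjusted p of 0.05, a 1.5-fold change and a mean normalized count of 10 over the libraries compared. Names and exonic lengths came from the WBcel235 annotation; its coordinates were not used, since the builds differ. 1 line of the table without a gene name was left out. The test was checked on simulated counts.

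The members and lists were chosen with earlier results of these data known. Both *lbp-7* and *lbp-8* were among the genes the study took up from these libraries. Open to naming from each list were the 3 genes with the smallest p in the double mutant against *eat-2* and in *eat-2* against wild-type. For each member, the 3 genes most like it were also open to naming. Not all of these genes are named here, and some others are marked as named after their values were seen. 3 listed names (*acs-8*, *ech-1*, *opt-2*) matched no gene of the table.

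Alternatives were DESeq2 1.42.0 size factors, total counts, DESeq2's test, no filter, only the genotypes compared, a replicate block, the adjusted p alone and leaving out each library. Replicates are biological by the methods. Each p-value of the edgeR fit weighs a genotype difference against the spread between replicates, estimated over all 12 libraries and moderated across genes.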

Additional observations from a re-analysis of the deposited data

How the results depend on the processing

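Over 904 alternative values of the members' log2 fold-changes, 854 kept their direction and their side of the thresholds, 14 gained a call, 16 lost one and 20 changed sign. None of the 20 belonged to a value past the adjusted p. The calls of *lbp-5*, *lbp-7* and *lbp-8* in *eat-2* against wild-type held in all 19 alternatives.

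The number of members called in *eat-2* against wild-type was 3, and 5 with the adjusted p alone. For the double mutant against *eat-2* it was 2, and 1 with only the genotypes compared. For the double mutant against *nhr-62* it was 1, and 2 with total counts, 2 with only the genotypes compared and 5 with the adjusted p alone. For the double mutant against wild-type it was 0, and 1 with total counts, where *lbp-5* was at 0.61. Leaving out single libraries gave 3 to 4, 0 to 2, 0 to 2 and 0 to 2 in these comparisons, and 0 for *nhr-62* against wild-type and for the interaction. The fourth call in *eat-2* against wild-type was *lbp-2* without *eat-2* replicate 2, at -0.61.

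Total counts turned *lbp-4* in *eat-2* against wild-type to 0.14, *lbp-6* in the double mutant against *eat-2* to -0.053, and the interactions of *lbp-1*, *lbp-2* and *lbp-3* to -0.045, -0.061 and -0.0034. This scaling moved the median of all genes to 0.28 in *eat-2* against wild-type, to -0.14 in the double mutant against *eat-2* and to -0.16 in the interaction, with 0.059, -0.033 and -0.031 under TMM. The other changes of sign came from leaving out single libraries. The ranges in *nhr-62* against wild-type were -0.042 to 0.21 for *lbp-1*, -0.023 to 0.062 for *lbp-3*, -0.020 to 0.066 for *lbp-4*, -0.19 to 0.16 for *lbp-5* and -0.32 to 0.078 for *lbp-7*. For *lbp-8* in the double mutant they were -0.30 to 0.31 against wild-type and -0.59 to 0.0078 against *nhr-62*. For the interaction they were -0.079 to 0.17 for *lbp-1* and -0.040 to 0.20 for *lbp-2*. The cause was not tested.

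Replicate numbers shared between genotypes were not taken to pair the libraries, since between no pair of genotypes were all 3 same-number correlations over 0.1 (range -0.22 to 0.30). All 3 were above 0 between the double mutant and *nhr-62* (0.059 to 0.289) and between *nhr-62* and wild-type (0.003 to 0.214), and 8 of 12 libraries were most like their own number. With the replicate block 2 members were called in the double mutant against *nhr-62*, *lbp-5* being added, and the number of members called was the same in the other comparisons. Genes called overall in the double mutant against *eat-2* numbered 1464 with the block, 1472 with total counts and 835 without either. The interaction called 198 genes overall with DESeq2's test and 40 with edgeR's.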
